A study of Homo sapiens with 4 samples.

Results

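Matrix metalloproteinases and their tissue inhibitors (TIMPs) were examined in LNCaP cells, an androgen receptor-positive human prostate cancer line, that overexpressed RRM2, the small subunit of ribonucleotide reductase. The members were 9 genes chosen by symbol (MMP10, MMP11, MMP14, MMP15, MMP16, MMP24, TIMP1, TIMP2 and TIMP3), and all 9 were among the 17141 genes with counts. LNCaP-RRM2 cells carried RRM2 on a lentiviral vector and were kept as a stable line under puromycin, and LNCaP-EV cells carried the empty vector. Both groups came from the ATCC line grown under its standard conditions, and each had 2 RNA-seq libraries. Nothing states if replicate libraries were grown apart, so the p-values measure the spread between these libraries, which may be technical, and a difference between the lines cannot be told apart from a difference between the transduced populations they grew from.

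Metalloproteinases are zinc-dependent enzymes that cut collagens, laminins, growth factor precursors and surface receptors outside the cell. They are made as inactive precursors, and TIMPs block the active enzymes by binding in the catalytic cleft. Some are secreted (here MMP10 and MMP11), whereas others are membrane-type enzymes that stay on the cell surface (MMP14, MMP15, MMP16 and MMP24). In prostate tumors much of the secreted activity is attributed to stromal and inflammatory cells, and LNCaP cells are known as weakly invasive.

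Library totals lay between 26601061 and 32601519 counts. RRM2 itself checked the labels, with 0.947 and 0.920% of all counts in LNCaP-RRM2 against 0.0309 and 0.0338% in LNCaP-EV. Expression is given as CPM, counts relative to the library total with trimmed-mean (TMM) scaling, and a gene was called when edgeR's quasi-likelihood test gave a Benjamini-Hochberg adjusted p below 0.05 over the 15162 genes tested together with a fold change above 1.5. With 2 libraries a group, the LNCaP-EV libraries differed from each other more than the LNCaP-RRM2 libraries did (chi-square per degree of freedom 22.01 against 7.35 for LNCaP-RRM2), and most of all in GC-rich genes. LNCaP luminal markers were all present, with summed levels of 10785 and 11167 CPM in LNCaP-RRM2 and 7647 and 7437 CPM in LNCaP-EV.

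Of the 8 members with enough counts to test, 5 were called higher in LNCaP-RRM2 (MMP10, MMP11, MMP15, MMP24 and TIMP2), where 12.5% of all tested genes were called higher. Of the same 8, only MMP16 was called lower, where 7.96% of all tested genes were. The groups did not overlap for 7 of the 8, with LNCaP-RRM2 the higher for 6 (as for 34.5% of all tested genes) and the lower for 1 (as for 40.9%). The median log2 fold change was 1.28 over these 8 genes and -0.03 over all tested genes. These medians came to 0.79 and -0.13 with each library's trend with GC content removed, as described below. TIMP3 was listed with too few counts for the test. The members were chosen with earlier results of these data known, so their shares beside those of all genes only describe them.

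**Figure D1:**
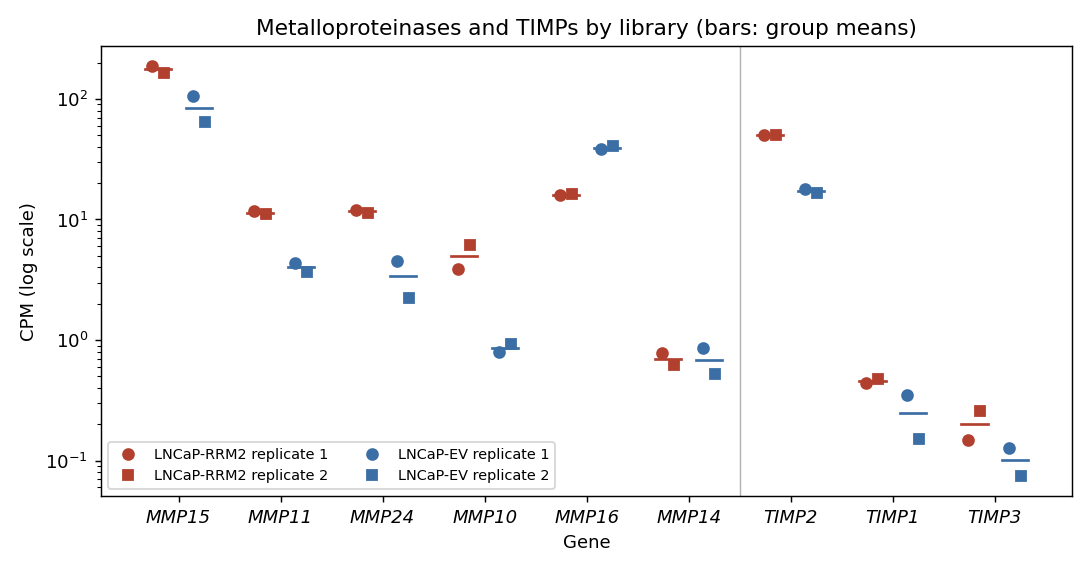
Expression of the 9 genes (x axis) in CPM on a log scale (y axis) in each library, with LNCaP-RRM2 in red and LNCaP-EV in blue; bars are group means. MMP16 is the only gene with both LNCaP-RRM2 points below both LNCaP-EV points, and MMP14 the only gene whose groups overlap.

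The membrane-type enzymes did not move together. MMP15, which anchors in the membrane and cuts matrix proteins and the precursor of MMP2, had 186 and 165 CPM in LNCaP-RRM2 and 105.5 and 64.0 CPM in LNCaP-EV. The groups did not overlap, but the LNCaP-EV libraries differed 1.65-fold from each other, and the lower LNCaP-RRM2 library was 1.56 times the higher LNCaP-EV library. MMP15 rose 2.07-fold (log2 fold change 1.05, SE 0.23, edgeR adjusted p = 0.0183). Its call was lost without LNCaP-RRM2 replicate 1 (log2 fold change 0.96) or replicate 2 (1.13), where fewer of all tested genes were called too. The value was 1.46 without LNCaP-EV replicate 1 and 0.82 without LNCaP-EV replicate 2.

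MMP24 is best known from neurons, where it cuts N-cadherin at synapses. It had 12.01 and 11.4 CPM in LNCaP-RRM2 and 4.52 and 2.25 CPM in LNCaP-EV. The LNCaP-RRM2 libraries were nearly equal, whereas the LNCaP-EV libraries differed 2.01-fold. The log2 fold change was 1.78 (SE 0.32, edgeR adjusted p = 0.0102), and it was 2.39 without LNCaP-EV replicate 1 and 1.46 without LNCaP-EV replicate 2. As for MMP15, the call was lost without LNCaP-RRM2 replicate 1 (log2 fold change 1.74) or replicate 2 (1.82).

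MMP24 was also the only member with fractional counts in every library (325.8 and 311.5 in LNCaP-RRM2, 143.1 and 60.1 in LNCaP-EV), and its reads may be shared with overlapping genes. On chromosome 20 it spans 35226736 to 35277001 on the plus strand and, by the positions of the counts table, shares its last 669 bases with the minus-strand gene MMP24OS, which GENCODE places across the whole of MMP24. MMP24OS had 54.0 and 56.3 CPM in LNCaP-RRM2 and 54.6 and 41.1 CPM in LNCaP-EV, and it was not called (log2 fold change 0.20, SE 0.15, edgeR adjusted p = 0.2998). A readthrough transcript of the minus strand, MMP24-AS1-EDEM2, covers the whole of MMP24 and had 1.55 and 1.25 CPM in LNCaP-RRM2 and 1.49 and 1.91 CPM in LNCaP-EV. Whether counting used the strand is not stated, so reads of the 3 genes cannot be told apart where they overlap.

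MMP16 went the other way. This membrane-type enzyme, which also activates the precursor of MMP2, had 15.9 and 16.3 CPM in LNCaP-RRM2 and 38.3 and 40.7 CPM in LNCaP-EV. Every LNCaP-EV library was at least 2.35 times every LNCaP-RRM2 library, and the libraries of each group differed by 1.03-fold in LNCaP-RRM2 and 1.06-fold in LNCaP-EV. MMP16 fell 2.46-fold (log2 fold change -1.30, SE 0.10, edgeR adjusted p = 0.00242), and 0.772% of all tested genes had a lower fold change. The gene lies on chromosome 8, and its decrease stayed between -1.34 and -1.13 over 20 alternatives, with the call in each.

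MMP14, the best studied membrane-type enzyme and the main activator of MMP2, was close to the limit of detection. It had 21 and 17 counts in LNCaP-RRM2 and 27 and 14 counts in LNCaP-EV, or 0.774 and 0.624 CPM against 0.854 and 0.524 CPM in LNCaP-EV. The LNCaP-RRM2 values lay between the LNCaP-EV values. The ratio of the summed counts, scaled to library size, was 0.994, with an exact binomial 95% interval from 0.622 to 1.58 for counting error only, which does not leave out a change of 1.5-fold in either direction. The edgeR log2 fold change was 0.00 (SE 0.38, adjusted p = 0.997).

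Of the secreted enzymes, MMP10 had the largest fold change among the 8 tested members. MMP10 (stromelysin) degrades proteoglycans, laminin and fibronectin and activates other metalloproteinase precursors. It had 106 and 166 counts in LNCaP-RRM2 and 25 and 25 counts in LNCaP-EV, which gave 3.91 and 6.09 CPM in LNCaP-RRM2 and 0.791 and 0.936 CPM in LNCaP-EV. The lower LNCaP-RRM2 library was 4.18 times the higher LNCaP-EV library. MMP10 rose 5.79-fold (log2 fold change 2.53, SE 0.30, edgeR adjusted p = 0.00419), and 99.3% of all tested genes had a lower fold change.

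MMP11 differs from most secreted family members in that furin-like convertases activate it inside the cell. It is known as a product of tumor-associated fibroblasts. MMP11 had 11.8 and 11.04 CPM in LNCaP-RRM2 and 4.37 and 3.67 CPM in LNCaP-EV, with no overlap. It rose 2.83-fold (log2 fold change 1.501, SE 0.16, edgeR adjusted p = 0.00325). GENCODE extends MMP11 upstream into CHCHD10 on the other strand, which had 52.6 and 48.1 CPM in LNCaP-RRM2 and 49.5 and 39.97 CPM in LNCaP-EV and was not called (log2 fold change 0.17).

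TIMP2 had the smallest adjusted p of the members. TIMP2 inhibits most metalloproteinases and also links the MMP2 precursor to MMP14 at the cell surface. It had 50.6 and 49.7 CPM in LNCaP-RRM2 and 17.9 and 16.4 CPM in LNCaP-EV. Libraries of a group differed by 1.02-fold in LNCaP-RRM2 and 1.09-fold in LNCaP-EV, and the groups were 2.77-fold apart at their nearest. TIMP2 rose 2.92-fold (log2 fold change 1.54, SE 0.10, edgeR adjusted p = 0.00206), and over 20 alternatives the log2 value stayed between 1.52 and 1.64, with the call in each. TIMP2 spans positions 78852977 to 78925390 of chromosome 17 on the minus strand, and no other counted gene overlaps it.

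The other inhibitors were nearly silent. TIMP1, a weak inhibitor of membrane-type enzymes, had 12 and 13 counts in LNCaP-RRM2 and 11 and 4 counts in LNCaP-EV (0.442 and 0.477 CPM against 0.348 and 0.150 CPM in LNCaP-EV). The LNCaP-RRM2 values were the higher ones, but the log2 fold change of 0.84 (SE 0.50) did not pass the edgeR test (adjusted p = 0.228), and the ratio of summed counts was 1.79 with an exact 95% interval from 0.906 to 3.65. Without LNCaP-EV replicate 1 the log2 fold change was 1.59 (edgeR adjusted p = 0.0613). TIMP3, which binds the matrix and also inhibits the sheddase ADAM17, had 4 and 7 counts in LNCaP-RRM2 and 4 and 2 in LNCaP-EV. GENCODE places it inside SYN3 and TIMP1 inside SYN1, both on the other strand and not among the counted genes. The ratio of summed TIMP3 counts was 1.97 with an interval from 0.666 to 6.47, so no difference was detectable at this depth.

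The nearest patterns to TIMP2 were found by the Euclidean distance of centred log2 CPM over the 4 libraries, taking the 11282 genes that averaged 5 CPM or more. The nearest was SYTL2, a Rab27-binding protein of vesicle transport, at a distance of 0.0551, with 38.5 and 38.9 CPM in LNCaP-RRM2 and 13.7 and 13.1 CPM in LNCaP-EV. SLC44A4, a choline transporter-like protein, followed at 0.0668, and TMPRSS13, a membrane serine protease, at 0.0844. With 4 libraries in 2 groups such a distance mainly reads the size of the group difference.

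Levels of different genes were compared as CPM per kilobase of merged exon length. MMP15 was the most abundant member in every library, with 43.8 and 38.8 CPM per kilobase in LNCaP-RRM2 and 24.8 and 15.1 CPM per kilobase in LNCaP-EV, and TIMP2 was next with 12.4 and 12.2 CPM per kilobase in LNCaP-RRM2 and 4.402 and 4.03 CPM per kilobase in LNCaP-EV. The median of all tested genes was 6.88 CPM per kilobase in LNCaP-RRM2 and 6.98 in LNCaP-EV, so only MMP15 and, in LNCaP-RRM2, TIMP2 stood above it. MMP16 ranked 6 of 9 in LNCaP-RRM2 (1.37 and 1.41 CPM per kilobase) and 3 of 9 in LNCaP-EV (3.32 and 3.52). In LNCaP-RRM2, MMP11 (5.13 and 4.82), MMP10 (2.22 and 3.46) and MMP24 (2.72 and 2.58) stood between TIMP2 and MMP16. Neighbours in the order that overlapped were MMP10 and MMP24 in both groups, and MMP14 and TIMP1 in LNCaP-EV.

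Summed over the 6 metalloproteinases, the level was 55.4 and 51.3 CPM per kilobase in LNCaP-RRM2 and 31.8 and 21.4 CPM per kilobase in LNCaP-EV. MMP15 made up 79.0 and 75.7% of that sum in LNCaP-RRM2 and 78.2 and 70.5% in LNCaP-EV, whereas MMP16 made up 2.48 and 2.75% in LNCaP-RRM2 and 10.5 and 16.5% in LNCaP-EV. TIMP2 made up 97.4 and 97.0% of the summed TIMP level in LNCaP-RRM2 and 94.3 and 97.1% in LNCaP-EV. Ratios of genes within a library cancel the scaling, but they were not corrected for the libraries' trends with GC content described below. MMP16 per kilobase was 0.111 and 0.115 times TIMP2 in LNCaP-RRM2 and 0.754 and 0.874 times TIMP2 in LNCaP-EV. The corresponding ratio of MMP15 to TIMP2 was 3.53 and 3.18 in LNCaP-RRM2 and 5.64 and 3.74 in LNCaP-EV. MMP10 went the other way, at 0.179 and 0.284 times TIMP2 in LNCaP-RRM2 and 0.102 and 0.132 times in LNCaP-EV. For MMP11 (0.413 and 0.395 in LNCaP-RRM2, 0.433 and 0.397 in LNCaP-EV) and MMP24 (0.219 and 0.212 in LNCaP-RRM2, 0.233 and 0.126 in LNCaP-EV) the groups' ratios overlapped. MMP14 was at most 0.0167 times TIMP2 in LNCaP-RRM2 and at most 0.0520 times in LNCaP-EV, on few counts.

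The fold changes had to be read beside the GC content of the transcripts. Ranked by GC content, genes of the lowest decile had a median log2 ratio of -0.23 for LNCaP-RRM2 over LNCaP-EV, and those of the highest decile 0.50. The same trend ran between LNCaP-EV replicate 1 and replicate 2, from -0.11 to 0.58, and less steeply between the LNCaP-RRM2 replicates, from -0.05 to 0.25. MMP11 (62.4% GC), MMP15 (61.3%) and MMP24 (60.6%) lay in deciles 10, 9 and 9, whereas TIMP2 (51.0%), MMP10 (45.5%) and MMP16 (44.1%) lay in deciles 6, 4 and 3.

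With each library's trend removed by an offset, 5 members were still called higher and MMP16 lower. In that fit 1624 of the 15162 tested genes were called higher and 1657 lower. The median log2 fold change was -0.13 over all tested genes and 0.79 over the 8 tested members. TIMP2 (log2 fold change 1.53), MMP10 (2.59) and MMP16 (-1.22) kept their size. MMP11 came to 0.98 (0.80 when LNCaP-EV replicate 1 was also left out), MMP24 to 1.38 and MMP15 to 0.60, which is just past the 1.5-fold limit. MMP15 fell under that limit when LNCaP-RRM2 replicate 2 was also left out (0.58). The trend's part in the remaining difference was not tested.

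**Figure D2:**
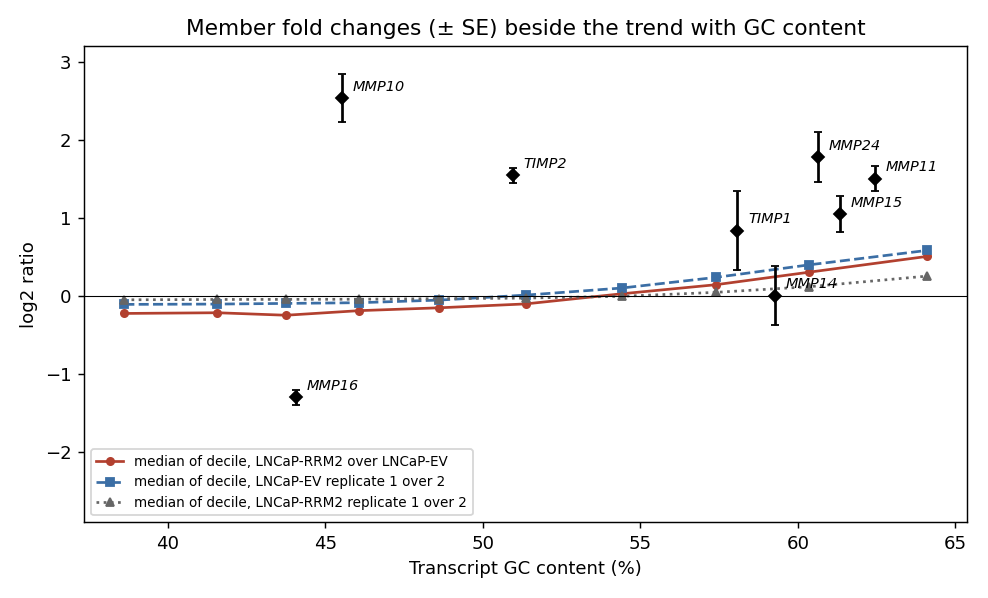
Log2 fold change of LNCaP-RRM2 over LNCaP-EV for the 8 tested members (diamonds, bars are ± SE; y axis) against the GC content of their transcripts in percent (x axis), with the median log2 ratio in each GC decile of all genes for 3 pairs of libraries or groups as lines. The lines climb to 0.50, 0.58 and 0.25 in the highest decile, and MMP11, MMP15 and MMP24 stand at that end, while MMP10, MMP16 and TIMP2 do not.

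**Figure D3:**
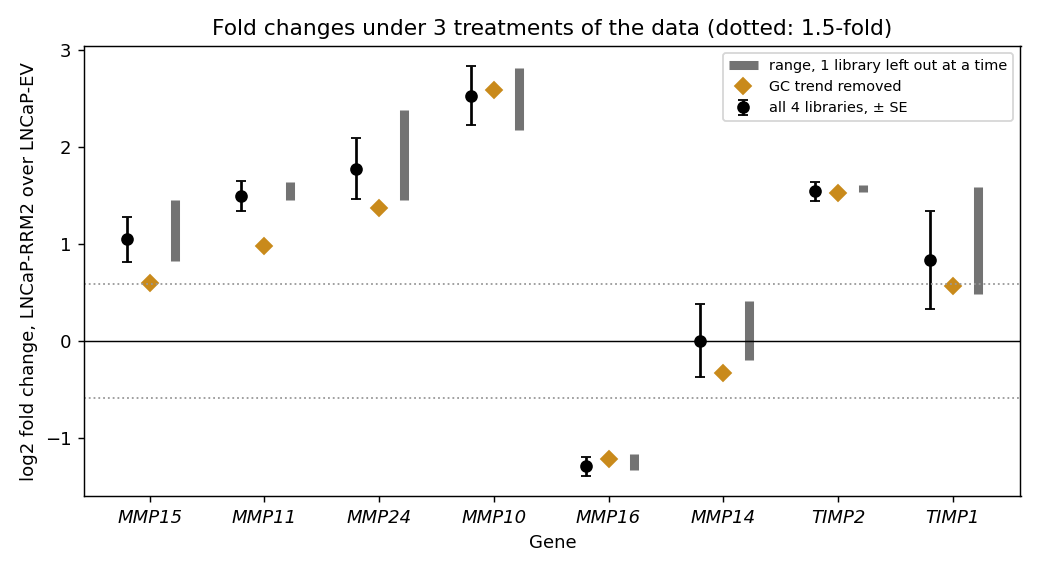
Log2 fold change (y axis) of the 8 tested members (x axis) with all 4 libraries (black, ± SE), after removal of the GC trend (diamonds) and as the range over leaving out each library in turn (grey bars). TIMP2 keeps to 1.53 to 1.62 when a library is left out and MMP16 to -1.34 to -1.16, whereas MMP24 ranges from 1.46 to 2.39 and MMP14 crosses 0.

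MMP10 lies in the metalloproteinase cluster of chromosome 11, at 102770502 to 102780628 on the minus strand. The other counted metalloproteinases of the cluster were MMP7 (matrilysin, an epithelial enzyme), MMP12 (macrophage elastase) and MMP13 (a collagenase), and the region was picked after the values of MMP10 had been seen. MMP7 had 3.28 and 3.01 CPM in LNCaP-RRM2 and 1.04 and 0.861 CPM in LNCaP-EV (log2 fold change 1.71, SE 0.22, edgeR adjusted p = 0.00467). MMP12 had 54 and 56 counts in LNCaP-RRM2 and 3 and 6 counts in LNCaP-EV (3.67, SE 0.39, edgeR adjusted p = 0.00335). MMP13 had 7.26 and 6.53 CPM in LNCaP-RRM2 and 2.09 and 2.73 CPM in LNCaP-EV (1.52, SE 0.19, edgeR adjusted p = 0.00472). All 4 enzymes of the cluster that were tested were thus called higher, where 12.5% of all tested genes were, and all had few counts. MMP12 had enough counts for the test only through LNCaP-RRM2, so its call adds little to the others. MMP1, MMP3, MMP8, MMP20 and MMP27 of the same cluster were not among the counted genes. Without LNCaP-RRM2 replicate 1 the adjusted p of MMP7 was 0.0552 and that of MMP13 0.0521.

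Genes beside the cluster moved less. BIRC3, an inhibitor of apoptosis within a megabase of the cluster, was called higher (18.4 and 16.5 CPM in LNCaP-RRM2, 10.2 and 9.96 CPM in LNCaP-EV, log2 fold change 0.79, SE 0.12, edgeR adjusted p = 0.00743). Its neighbour BIRC2 (-0.16) and YAP1 (-0.03) on the same side, and DCUN1D5 (-0.21) and DYNC2H1 (0.16) on the other, were not called. LOC101928424 (0.72), CEP126 (0.49) and TMEM123 (0.38), also on the side of BIRC3, were not called either. TMEM123 passed the adjusted p (edgeR adjusted p = 0.0125) but not the fold limit. WTAPP1, a pseudogene that GENCODE places across MMP10 on the other strand, had 6 and 14 counts in LNCaP-RRM2 and 5 and 2 in LNCaP-EV, too few to test.

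**Figure D4:**
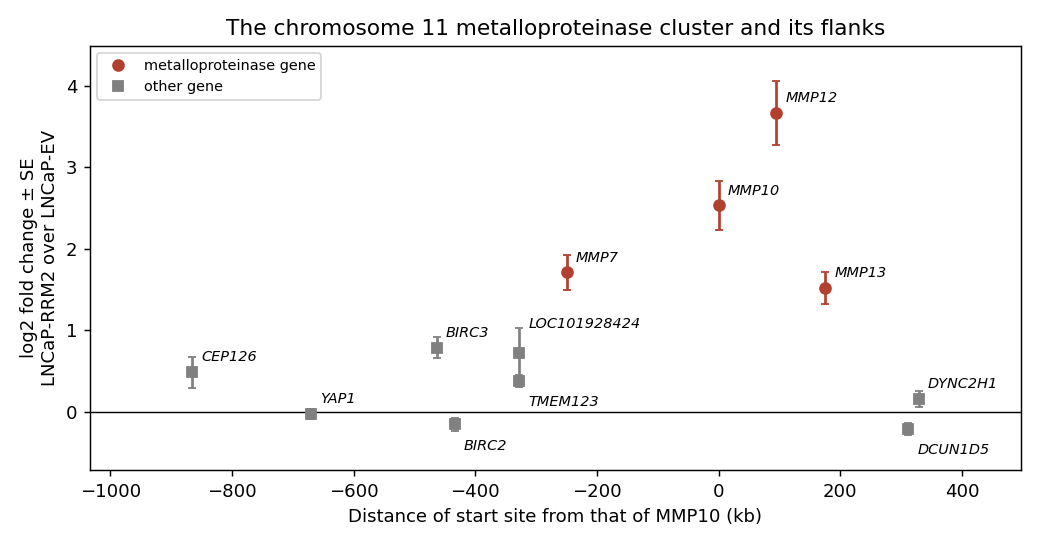
Log2 fold change of LNCaP-RRM2 over LNCaP-EV (y axis, ± SE) for tested genes within a megabase of the chromosome 11 cluster, by the distance of their start site from that of MMP10 in kilobases (x axis). The 4 metalloproteinases (red circles) lie between 1.52 and 3.67, and the other genes (grey squares) between -0.21 and 0.79.

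Promoter sequences were read from RefSeq (GRCh38.p14), whose window runs from 250 bases before to 50 bases after the start site. Metalloproteinase promoters of this cluster are known for a TATA box with an AP-1 site upstream of it, the site bound by FOS and JUN dimers. The windows were searched on both strands. The AP-1 motif was spelled TGANTCA and occurred in 7.71% of 35116 promoters. A TATA box, spelled TATAAA, occurred in 11.5%. The GC box of SP1-type factors, spelled GGGCGG, occurred in 44.95%, and none of these motifs overlap another here. The 120 bases before the start site are printed for MMP10 and MMP7, to show this layout, with matches in capitals.
MMP10, chr11:102780629-102780748, minus strand: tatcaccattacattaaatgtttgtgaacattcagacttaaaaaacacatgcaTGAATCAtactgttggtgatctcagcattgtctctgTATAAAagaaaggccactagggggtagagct
MMP7, chr11:102530748-102530867, minus strand: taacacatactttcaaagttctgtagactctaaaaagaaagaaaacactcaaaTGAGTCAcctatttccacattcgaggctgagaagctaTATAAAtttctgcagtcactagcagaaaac
In both, an AP-1 match began 67 bases before the start site, and a TATA match 31 bases before it in MMP10 and 30 bases before it in MMP7. Neither window had a GC box.

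The promoters of MMP11, MMP15 and MMP24 had the opposite layout, with no AP-1 or TATA match in the window and 4, 5 and 3 GC boxes. They are printed over the same 120 bases, which hold 3 of the GC boxes of each gene, in capitals for either strand.
MMP11, chr22:23772729-23772848, plus strand: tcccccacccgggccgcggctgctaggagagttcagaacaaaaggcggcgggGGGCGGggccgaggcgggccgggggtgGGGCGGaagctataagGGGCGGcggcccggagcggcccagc
MMP15, chr16:58025634-58025753, plus strand: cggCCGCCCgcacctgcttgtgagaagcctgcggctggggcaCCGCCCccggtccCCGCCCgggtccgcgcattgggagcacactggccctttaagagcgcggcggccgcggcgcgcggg
MMP24, chr20:35226570-35226689, plus strand: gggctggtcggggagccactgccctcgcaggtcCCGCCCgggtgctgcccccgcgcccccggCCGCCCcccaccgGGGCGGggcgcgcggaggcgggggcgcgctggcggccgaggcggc
GC content of the 300-base window was 74.3% for MMP11, 75.3% for MMP15 and 80% for MMP24, against 36.3% for MMP10, 35.7% for MMP7 and a median of 58.7% over all promoters. MMP14, which was not called, had 1 GC box and neither other motif, TIMP1 had 2 GC boxes and TIMP3 had 5. The promoters of MMP16, TIMP2, MMP12 and MMP13 were not analysed here. A match is a run of letters, not a measured binding site.

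Of a list of AP-1 and ETS factors, which also holds EGR1, 13 of 13 listed genes were counted and 12 tested, with 1 called higher and 1 lower. JUN had 53.6 and 43.8 CPM in LNCaP-RRM2 and 34.96 and 29.5 CPM in LNCaP-EV (log2 fold change 0.59, SE 0.14, edgeR adjusted p = 0.0224), and it fell under the fold limit with the GC trend removed (0.36) and missed the adjusted p without either LNCaP-RRM2 library. ETV5 was low, with 0.184 and 0.257 CPM in LNCaP-RRM2 and 0.759 and 0.487 CPM in LNCaP-EV (-1.496, SE 0.46, edgeR adjusted p = 0.0479), and its call was lost in most alternatives, among them leaving out LNCaP-EV replicate 1 or either LNCaP-RRM2 library. EGR1 had the highest log2 fold change of the list (0.84) and was not called. The median of the list was 0.09, and -0.26 with the GC trend removed.

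Other enzymes and inhibitors of the same pathway were taken as lists. Of 17 other metalloproteinases 7 were counted and 5 tested, with MMP7, MMP12 and MMP13 called higher. MMP19 (log2 fold change 0.41) and MMP25 (0.33) were not called, and MMP17 and MMP21 were too low to test. The others, with the gelatinases MMP2 and MMP9, were not among the counted genes. Of a list of 8 other inhibitors and related proteins, 6 were counted and 4 tested, and 3 were called higher. PCOLCE has a TIMP-like domain but is an enhancer of procollagen processing, not an inhibitor. It had 2.47 and 2.24 CPM in LNCaP-RRM2 and 0.854 and 0.711 CPM in LNCaP-EV (1.58, SE 0.23, edgeR adjusted p = 0.00659). The testican proteoglycans SPOCK2 (1.36, SE 0.22, edgeR adjusted p = 0.00844) and SPOCK1 (0.87, SE 0.15, edgeR adjusted p = 0.00919) were also called, and RECK, a membrane-anchored inhibitor, had a log2 fold change of 0.28 (SE 0.15, edgeR adjusted p = 0.172). A2M, a plasma protease inhibitor, had 2 and 1 counts in LNCaP-RRM2 and 7 and 4 in LNCaP-EV, and TFPI2 had 6 and 3 in LNCaP-RRM2 and 6 and 7 in LNCaP-EV, too few to test. All 3 calls were lost when either LNCaP-RRM2 library was left out.

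The related ADAM sheddases had 3 of 12 tested genes higher and none lower, with a median of 0.53. The higher ones were ADAM23 (log2 fold change 1.23), ADAM8 (1.01) and ADAM28 (0.96). ADAM10 (0.57, edgeR adjusted p = 0.00648) and ADAM17 (0.48, edgeR adjusted p = 0.0131), which shed most surface ligands, passed the adjusted p but not the fold limit. Of 6 ADAMTS proteases tested, ADAMTS13 (1.00), which cuts von Willebrand factor, and ADAMTS7 (2.15) were higher, and ADAMTS7 stood at 3.12 without LNCaP-EV replicate 1. With the GC trend removed ADAM8 (0.35) and ADAMTS13 (0.41) were no longer called. Proprotein convertases, which activate MMP11 and the membrane-type enzymes, had 1 of 5 tested genes higher, PCSK4 (1.39), and FURIN was not called (0.32). The higher calls in these 3 lists were lost when either LNCaP-RRM2 library was left out.

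Surface serine proteases and the plasminogen activator system had 8 of 12 tested genes higher and none lower. The 3 with the smallest p were TMPRSS2 (log2 fold change 1.22), an androgen-regulated protease, SPINT2 (0.84), an inhibitor of such proteases, and SERPINB5 (0.99), the maspin serpin. SPINT2 stood at 0.58 with the GC trend removed, under the fold limit, and the list then had 6 of 12 higher. It had 4 higher without LNCaP-RRM2 replicate 1 and 5 without replicate 2. The activators PLAU and PLAT and the receptor PLAUR were not called.

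Of 25 tested matrix substrates, 16 were higher and 1 lower, with a median log2 fold change of 1.20. With the GC trend removed 17 were higher and 1 lower, and the median was 0.88. The 3 higher ones with the smallest p were TNC (2.84), tenascin C, COL4A5 (0.85), a basement membrane collagen chain, and LAMB1 (1.20), a laminin chain. FN1, fibronectin, was the lower one, with 678 and 712 CPM in LNCaP-RRM2 and 1128 and 1142 CPM in LNCaP-EV (-0.71, SE 0.07, edgeR adjusted p = 0.00293), and its call was lost without LNCaP-RRM2 replicate 1 (adjusted p = 0.0538). Of 6 surface proteins that MMP14 is known to cleave, 4 were higher, LRP1 (1.64), DLL1 (1.22), PTK7 (1.01) and SDC1 (0.89), and SDC1 fell under the fold limit with the GC trend removed (0.52). Fewer genes of both lists were called higher when either LNCaP-RRM2 library was left out, as was so over all tested genes.

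**Figure D5:**
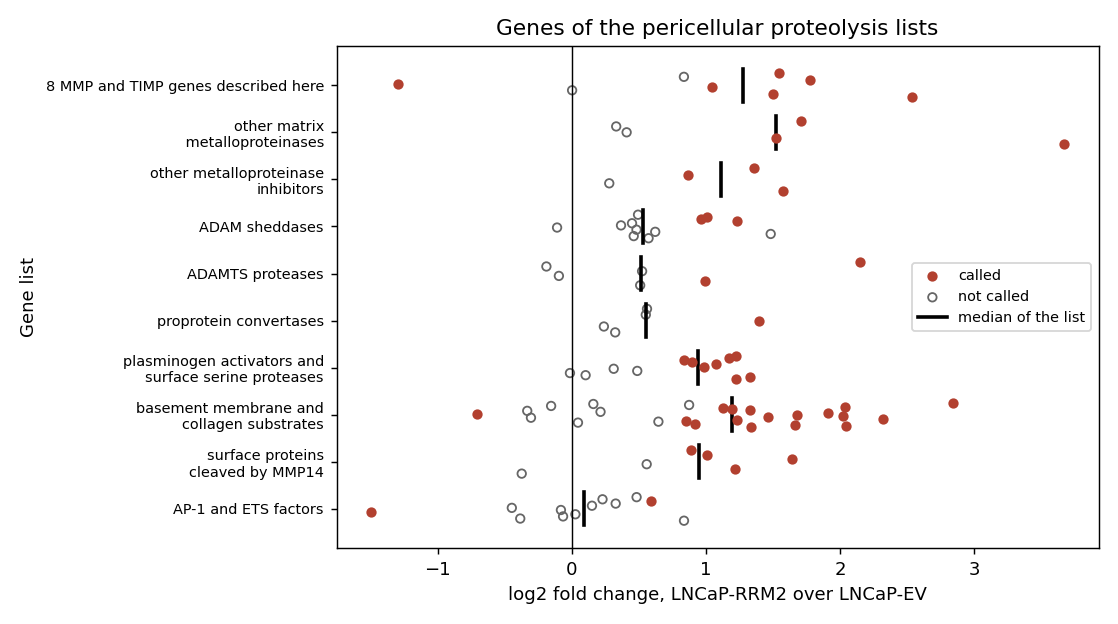
Log2 fold change of LNCaP-RRM2 over LNCaP-EV (x axis) for the tested genes of each list (rows), with called genes filled, others open and the list's median as a bar. Medians run from 0.09 for AP-1 and ETS factors to 1.52 for the other metalloproteinases, and the 8 members have both the lone lower metalloproteinase and 5 higher genes.

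Markers of other cells were read beside these values, since MMP11, MMP12 and several collagens are also made by stromal or blood cells. Of 12 fibroblast and stromal markers 7 were counted and 6 tested, and 5 were higher, with sums of 57.8 and 50.7 CPM in LNCaP-RRM2 and 25.7 and 19.1 CPM in LNCaP-EV. COL1A1, TAGLN and ACTA2 made up between 90.6 and 94.6% of that sum in each library. COL1A1 had 32.8 and 24.2 CPM in LNCaP-RRM2 and 11.1 and 6.74 CPM in LNCaP-EV, whereas its partner chain COL1A2 had 0.111 and 0.183 CPM in LNCaP-RRM2 and 0.127 and 0.187 CPM in LNCaP-EV. Of 8 blood cell markers 4 were counted, and CD68 (24.4 and 23.2 CPM in LNCaP-RRM2, 5.79 and 5.65 CPM in LNCaP-EV) and CSF1R (0.442 and 0.367 against 0.0949 and 0.0374 CPM in LNCaP-EV) were higher. CSF1R was very low, and its call was lost with DESeq2 and when either LNCaP-RRM2 library was left out. Markers of androgen receptor-negative prostate lines summed to 14.1 and 14.2 CPM in LNCaP-RRM2 and 7.62 and 8.65 CPM in LNCaP-EV, with 2 of 8 tested genes higher, and the 2 tested endothelial markers had a median log2 fold change of 0.36. Without LNCaP-RRM2 replicate 1 or replicate 2 the fibroblast list had at most 1 gene called higher, and CD68 kept its call without any 1 library. The part of these markers in the metalloproteinase values was not tested. In bulk RNA, more cells that make a transcript and more transcript per cell cannot be told apart.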

How the data were processed

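RNA from 2 LNCaP-RRM2 and 2 LNCaP-EV libraries was sequenced with paired-end reads, and the authors deposited estimated counts per gene made in Partek Flow. Its aligner, quantification settings, genome build and annotation were not given in the sources used here. Genes were listed from a total of 10 counts, and 56.1 to 58.1% of values were whole (tolerance 1e-06). Estimated counts were rounded and tested with edgeR 4.0.16 (filterByExpr, TMM, quasi-likelihood F-test, Benjamini-Hochberg over 15162 genes) in R 4.3.3. Alternatives used DESeq2 1.42.0, limma 3.58.1, other scalings and filters, a GC offset (lowess span 0.3) and left-out libraries. The step was also run on simulated data with known changes, and the outcome is not given here. The simulation used the same dispersion for every gene and had no GC trend. It changed no gene as low as MMP14, TIMP1 or TIMP3, so it does not show how the step handles these. GC content (for 95.6% of tested genes) and exon length came from GENCODE v29. Positions are those of the deposited table, of which 99.8% of 16038 matched genes overlapped RefSeq GRCh38. Members and lists were chosen with earlier results of these data known. Named were all members, overlapping genes, and the other metalloproteinases, inhibitors and related proteins. Also named were up to 3 called genes a list and direction by smallest p, and the 3 genes nearest to the member with the smallest p. The GC offset combined with left-out libraries was added after seeing the data.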

Additional observations from a re-analysis of the deposited data

How the results depend on the processing

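MMP10, MMP11, MMP16 and TIMP2 kept their direction and call in every alternative that tested them. Leaving out a library moved the members called higher between 3 and 5, the genes called higher between 362 and 3003 and the genes called lower between 234 and 1465; with the GC trend also removed these gene counts ran from 1257 to 2061 and from 994 to 1859. All 4 libraries gave 1899 higher and 1207 lower genes. Without the GC offset, both counts fell when either LNCaP-RRM2 library was left out and rose when LNCaP-EV replicate 1 was left out. The split was 2300 against 878 with total counts only, 2475 against 827 with upper-quartile factors and 1624 against 1657 with the GC trend removed; the last moved the median of all genes to -0.13, from -0.03. The stricter filter called 612 genes lower, and without the fold limit 3695 were lower and 2704 higher. The log2 value of MMP14 was -0.16 without LNCaP-RRM2 replicate 1, -0.20 without LNCaP-EV replicate 2, -0.33 with the GC trend removed, -0.32 with the replicate block added to that, and -0.42 and -0.25 (without LNCaP-RRM2 replicate 1 and 2) or -0.13 and -0.37 (without LNCaP-EV replicate 1 and 2) with the trend removed; leaving out 1 library alone gave -0.20 to 0.42. TIMP3 was tested only without the low-count filter (0.96, edgeR adjusted p = 0.340). The replicate block gave 2346 higher and 1255 lower genes and the same 5 and 1 members; the labels share only a replicate number, and same-numbered libraries deviated together with a correlation of 0.41 across genes. Depth limits MMP14, TIMP1 and TIMP3. The cause of these shifts was not tested.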
